A study of Mus musculus with 4 samples.

Results

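The 6 genes described here encode the subunits of rod transducin and of the rod cGMP phosphodiesterase PDE6, and all 6 were found by symbol among the 22095 loci of the deposited expression table. *Gnat1*, *Gnb1* and *Gngt1* encode the α, β and γ subunits of transducin. *Pde6a* and *Pde6b* encode the catalytic α and β subunits of PDE6, and *Pde6g* encodes its inhibitory γ subunit. Expression was measured by RNA-seq in 4 libraries of retina from mice aged 3 weeks, 2 from *rd7* mice and 2 from wild-type C57BL/6J mice. The *rd7* mice carry a mutant allele of *Nr2e3*, a nuclear receptor of rod development, and their labels give the same strain, C57BL/6J. Each library pooled 8 retinas from 2 females and 2 males, so replicate error here is the difference between pooled samples, not between single mice.

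In rods, the light-activated visual pigment makes the α subunit of transducin exchange GDP for GTP and leave the βγ dimer. The GTP-bound α subunit then pulls the inhibitory γ subunits of PDE6 away from its catalytic core, cGMP is broken down and the cyclic nucleotide-gated channels of the outer segment close. Cones run the same cascade with their own genes, *Gnat2*, *Gnb3*, *Gngt2*, *Pde6c* and *Pde6h*. A cone has a single catalytic PDE6 subunit where a rod pairs PDE6α with PDE6β. Mutations in the rod PDE6 genes are a known cause of retinal degeneration, and *Gnb1*, unlike the other members, is used by many cell types.

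Levels are given as FPKM, the sequenced fragments of a gene scaled to the length of its transcript and to the mapped fragments of the library. The deposited table gives each estimate a status, and 23 of the 24 estimates of the 6 genes were marked as successful. The exception was *Gnb1* in *rd7* replicate 1, which was marked as failed although a value was listed. The libraries were compared with limma on log2(FPKM + 0.1), two-sided, over the 12655 genes that averaged 1 FPKM or more and had a successful status in all 4 libraries, and p-values were adjusted over all of them by the Benjamini-Hochberg method with a false discovery rate (FDR) of 5%. *Gnb1* was taken from the same fit with failed values set to missing, over 12684 genes.

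The 4 libraries held an estimated 34900000 to 35600000 reads, if the step found among the lowest FPKM values is the worth of 1 read. On that estimate between 53032 and 408637 reads lay behind each value of the 6 genes, and counting error was at most 0.43% of a value. The step was sought only between 0.02 and 0.036 FPKM times kb, a window chosen by eye that itself limits the estimate. The mapped reads reported by the study were more in total than these estimates add up to, so the read numbers are rough. *Nr2e3* itself had an FPKM of 2493 and 1589 in *rd7* and of 385 and 394 in wild-type retinas. In *rd7* this is RNA of the mutated gene. The study states that *rd7* mice lack the factor, so these values do not measure the protein. The rod markers *Nrl*, *Sag* and *Cnga1* had a summed FPKM between 3845 and 3938 in *rd7* and between 4265 and 4406 in wild-type, against 2973 to 3269 and 971 to 1004 for 5 cone markers, so transcripts of both marker sets were present in each library. The study describes *rd7* rods as hybrid photoreceptors, so these sums do not count rods or cones. Of the rod markers tested 2 of 3 were called lower, and of the cone markers 3 of 5 higher, among them *Gnat2* and *Pde6h*, which are also cone counterparts of the genes described here. Of the other cone markers, the short-wavelength opsin gene *Opn1sw* was called higher (504 and 465 FPKM against 185 and 215), while the middle-wavelength opsin gene *Opn1mw* (172 and 208 against 207 and 217) and the cone arrestin gene *Arr3* (159 and 197 against 169 and 166) were not called. The summed markers of blood (*Hbb-b1* and *Alas2*, since *Hba-a1* and *Hba-a2* each stand at more than 1 locus) ran from 67.5 to 138 in *rd7* and from 198 to 266 in wild-type, those of lens from 13.9 to 31.4 and from 24.8 to 53.2, and those of pigment epithelium from 53.5 to 57.8 and from 20.6 to 32.8. Those of bipolar cells ran from 236 to 277 and from 172 to 178, and those of Müller cells from 1198 to 1269 and from 1106 to 1136. Called higher were 3 of 4 markers tested for pigment epithelium, 3 of 4 for bipolar cells and 2 of 4 for Müller cells, 0 of 3 lens markers were called either way, and both blood markers were called lower. Over all genes tested 37.6% were called higher and 8.80% lower, so counts over so few markers do not by themselves show a change in cell content. No marker of these lists that was summed was at 0 in any library, and the part of any of these cells in the results was not tested.

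Rod transducin α and γ and the inhibitory PDE6 subunit fell in *rd7* retinas, by 42.0% for *Gnat1*, 31.5% for *Gngt1* and 27.6% for *Pde6g*, while no change was called for the catalytic subunit genes *Pde6a* and *Pde6b*. *Gnb1* was 12.8% lower without passing the test. Thus 3 of the 6 genes were called lower and 0 higher by limma at an FDR of 5%, where 8.80% of all genes tested were called lower, 37.6% higher and 46.4% either way. In the fit with failed values missing, which gave *Gnb1*, 8.81% of genes were called lower. At an unadjusted p under 0.05 *Gnb1* joined those lower and the number higher was still 0. The share of all genes at that looser threshold was not counted, so nothing is drawn from this. The median log2 fold change of the 6 genes was -0.33, and that of all genes tested was 0.15. Relative to that median, the log2 fold changes were -0.93 for *Gnat1*, -0.69 for *Gngt1*, -0.61 for *Pde6g*, -0.34 for *Gnb1*, -0.13 for *Pde6a* and -0.12 for *Pde6b*. Both *rd7* values lay below both wild-type values in 3 of the 5 members with 4 successful estimates, and in 19.5% of all genes tested, while both lay above in none of these members and in 57.1% of genes. A log2 fold change at or below that of *Pde6g* was found in 3.41% of genes. With median-ratio scaling 4 members were called lower, where 19.6% of genes were called lower and 19.7% higher. With a correction for GC content and length 4 were called lower, where 15.1% of genes were called lower, 12.4% higher and 27.5% either way, and with quantile normalization 2 were, *Gngt1* and *Pde6g*, where 19.0% of genes were called lower and 18.6% higher. In whole retina, fewer rods and less RNA per rod cannot be told apart.

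**Figure D1:**
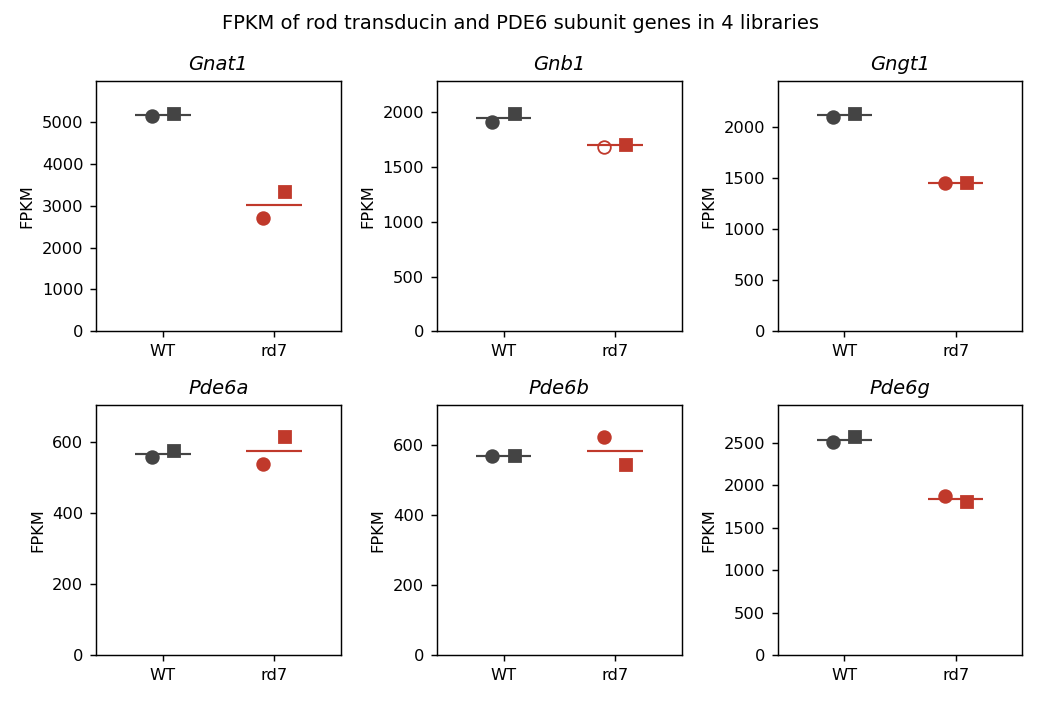
FPKM of the 6 subunit genes (vertical axes, linear and starting at 0) in the wild-type (WT, grey) and *rd7* (red) libraries. Circles are replicate 1, squares replicate 2, lines the mean of the successful estimates, and the open circle the failed estimate of *Gnb1*. *Gnat1*, *Gngt1* and *Pde6g* lie lower in both *rd7* libraries than in both wild-type libraries, and *Pde6a* and *Pde6b* overlap.

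*Gnat1*, the α subunit that carries the light signal to PDE6, lies on chromosome 9 of mm9 from 107576805 to 107581923 on the minus strand, with 9 exons in its longest coding transcript. Its FPKM was 2710 and 3333 in *rd7* replicates 1 and 2 and 5154 and 5206 in wild-type replicates 1 and 2. The groups did not overlap, and the *rd7* libraries were farther apart (SD 440, n = 2) than the wild-type libraries (SD 36.6, n = 2). The log2 fold change was -0.79 (standard error 0.10, 95% interval -1.04 to -0.53, adjusted p = 0.0033 from limma). The call was lost only with quantile normalization (-0.24, adjusted p = 0.264 from limma) among the settings tried. With a library left out the log2 fold change ran from -0.93 (without *rd7* replicate 2) to -0.64 (without *rd7* replicate 1), and the adjusted p from limma was 0.0464 without wild-type replicate 1 and 0.0401 without replicate 2. Quantile normalization gives genes of equal rank an equal value in every library, and among the genes tested *Gnat1* ranked first in 3 libraries and 2 in *rd7* replicate 1.

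*Gnb1*, the β subunit, lies on chromosome 4 from 154865470 to 154933377 on the plus strand and has 12 exons. Its FPKM was 1700 in *rd7* replicate 2 and 1909 and 1989 in the wild-type libraries, and the failed estimate of *rd7* replicate 1 was listed at 1686. Every *rd7* value lay under both wild-type values, with or without the failed one. With that value missing, the log2 fold change was -0.20 (standard error 0.07, 95% interval -0.39 to -0.0043, adjusted p = 0.0865 from limma), which did not pass the threshold. With the failed value used as deposited, a setting added after the data were examined, it was -0.20 and passed (adjusted p = 0.0277 from limma), and it also passed with median-ratio scaling (-0.35) and with a correction for GC content and length (-0.42). When *rd7* replicate 1 was left out of the whole fit the value stayed at -0.20 and the adjusted p from limma was 0.00311, with the spread taken from the wild-type pair alone. With quantile normalization its sign turned (0.10, adjusted p = 0.259 from limma). Whether *Gnb1* was lower in *rd7* retinas therefore depended on the setting.

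*Gngt1*, the γ subunit of rod transducin, whose farnesyl group holds the complex to the disc membrane, lies on chromosome 6 from 3944012 to 3947436 on the plus strand, with 3 exons. Its FPKM was 1450 and 1447 in *rd7* and 2098 and 2129 in wild-type retinas. Replicates differed little in either genotype (SD 2.60 in *rd7* and 21.7 in wild-type, n = 2 each) beside a difference between the means of 1448 and 2113. The log2 fold change was -0.55 (standard error 0.05, 95% interval -0.67 to -0.42, adjusted p = 0.00145 from limma). It was the only member called lower under every setting tried and with each library left out, with log2 fold changes from -0.94 after correction for GC content and length to -0.33 with quantile normalization. Its annotated exons have the lowest GC content of the 6 genes, 36.0% against 48.1% to 53.6% in the others, and the correction used their joined length of 3510 bases, while the longest coding transcript has 1178.

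*Pde6g*, the inhibitory subunit that blocks the catalytic sites in the dark, lies on chromosome 11 from 120308924 to 120314797 on the minus strand, with 4 exons. Its FPKM was 1870 and 1808 in *rd7* and 2509 and 2568 in wild-type retinas, and the groups did not overlap. The log2 fold change was -0.47 (standard error 0.06, 95% interval -0.60 to -0.33, adjusted p = 0.00254 from limma). When a wild-type library was left out, the lone one being assumed to vary like the *rd7* libraries, the value hardly moved but the call was lost, at -0.48 without replicate 1 (adjusted p = 0.0595 from limma) and -0.45 without replicate 2 (adjusted p = 0.0577 from limma). Over all genes, these fits called 260 and 359 genes lower in place of 1114.

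*Pde6a* and *Pde6b* form the catalytic heterodimer, each with 22 exons in its longest coding transcript, and lie on chromosome 18 from 61380153 to 61449372 and on chromosome 5 from 108817392 to 108860761, both on the plus strand. The FPKM of *Pde6a* was 537 and 613 in *rd7* and 557 and 574 in wild-type retinas. That of *Pde6b* was 623 and 543 in *rd7* and 569 and 571 in wild-type retinas. For both genes the 2 wild-type values lay between the 2 *rd7* values, and the *rd7* library that was higher for one gene was lower for the other. The log2 fold change of *Pde6a* was 0.02 (standard error 0.07, 95% interval -0.16 to 0.20, adjusted p = 0.832 from limma) and that of *Pde6b* 0.03 (standard error 0.07, 95% interval -0.15 to 0.21, adjusted p = 0.764 from limma). The lower ends of the intervals, -0.16 and -0.15, are closer to 0 than the log2 fold changes of *Gnat1*, *Gngt1* and *Pde6g*. Both signs turned, without a call, with median-ratio scaling (-0.13 and -0.12) and after correction for GC content and length (-0.19 for each). With *rd7* replicate 1 left out *Pde6a* was called higher (0.12, adjusted p = 0.033 from limma), and with *rd7* replicate 2 left out *Pde6b* was called higher (0.13, adjusted p = 0.0216 from limma). In these fits the wild-type pair alone gave the spread, for all genes, and the lone *rd7* library was assumed to vary like it.

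**Figure D2:**
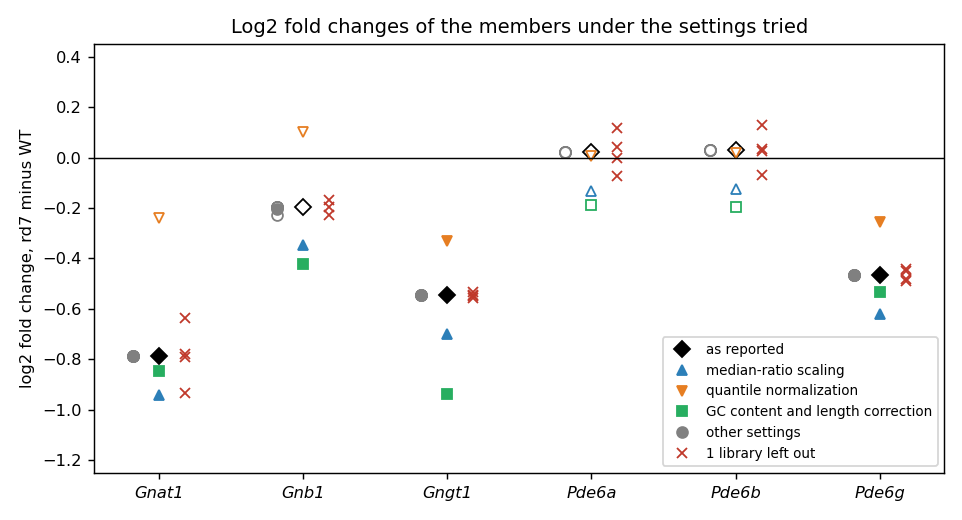
Log2 fold change (*rd7* minus wild-type, vertical axis) of each of the 6 genes under the settings tried. Black diamonds are the reported values, triangles and squares other normalizations, grey circles the remaining settings and red crosses fits without 1 library, and open symbols were not called at an FDR of 5% (crosses are drawn alike). *Gngt1* lies between -0.94 and -0.33 throughout, and *Pde6a* and *Pde6b* scatter on both sides of 0.

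RefSeq promoter windows on GRCm38.p6 (a later build than the mm9 of the expression table) were used for 3 of the 6 genes. These were *Gngt1*, *Gnb1* and *Pde6b*, and all 3 windows are shown. No window of the other members was examined, so these 3 genes do not stand for all 6. Their outcomes differed, with *Gngt1* called lower in every setting, *Gnb1* in some and *Pde6b* in none. Each line gives the 250 bases before the annotated start on the plus strand, 5′ to 3′, for *Gngt1* at chr6:3993758-3994007, for *Gnb1* at chr4:155491111-155491360 and for *Pde6b* at chr5:108388123-108388372. Capitals mark matches on either strand to TAATCC, a core bound by the photoreceptor homeodomain factor CRX, to TGCTGA, the core of sites bound by the rod factor NRL, or to GGGCGG, a GC box.
Gngt1: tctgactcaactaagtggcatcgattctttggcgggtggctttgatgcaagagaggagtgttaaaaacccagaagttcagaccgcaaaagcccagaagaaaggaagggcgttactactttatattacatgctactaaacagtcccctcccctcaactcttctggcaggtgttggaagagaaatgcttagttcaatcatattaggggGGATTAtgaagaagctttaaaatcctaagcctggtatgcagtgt
Gnb1: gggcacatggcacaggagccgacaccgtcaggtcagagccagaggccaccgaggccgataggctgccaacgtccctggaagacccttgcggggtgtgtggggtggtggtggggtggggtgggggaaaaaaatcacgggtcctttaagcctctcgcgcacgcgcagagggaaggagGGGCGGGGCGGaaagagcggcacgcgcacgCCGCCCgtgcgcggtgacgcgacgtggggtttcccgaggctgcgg
Pde6b: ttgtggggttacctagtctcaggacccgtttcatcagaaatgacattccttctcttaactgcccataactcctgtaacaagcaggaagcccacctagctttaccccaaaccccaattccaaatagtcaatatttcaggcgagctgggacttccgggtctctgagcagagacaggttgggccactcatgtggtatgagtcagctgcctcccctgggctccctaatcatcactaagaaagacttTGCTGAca
*Gngt1* had a match to TAATCC on the minus strand, 44 to 39 bases before its start, and 6.3% of all 32851 promoter windows hold one. *Pde6b* had a match to TGCTGA, 8 to 3 bases before its start, which 16.1% of windows hold. *Gnb1* had 3 matches to GGGCGG, a pair of them sharing a base, and 32.7% of windows hold at least 1. Its window was 69.2% G and C, against 44.0% in *Gngt1*, 49.6% in *Pde6b* and a median of 52.4% over all windows. These matches are letters in a window and were not tested as binding sites.

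Ratios between genes of the same library do not depend on scaling each library by a single factor. *Gnat1* had 5.05 and 5.43 times the FPKM of *Pde6a* in the *rd7* libraries and 9.25 and 9.07 times in the wild-type libraries, and 4.35 and 6.13 against 9.06 and 9.12 times that of *Pde6b*. *Pde6g* had 1.61 and 1.56 times the summed FPKM of *Pde6a* and *Pde6b* in *rd7* and 2.23 and 2.24 times in wild-type retinas. These ratios were lower in 2 of 2 *rd7* libraries. *Pde6a* over *Pde6b* was 0.862 and 1.13 in *rd7* and 0.980 and 1.01 in wild-type retinas, and the genotypes overlapped.

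Within transducin, *Gnat1* over *Gngt1* was 1.87 and 2.30 in *rd7* and 2.46 and 2.45 in wild-type retinas. *Gngt1* over *Pde6g* was 0.775 and 0.800 against 0.836 and 0.829. *Gnb1* over *Gngt1* was 1.18 in *rd7* replicate 2, and 1.16 with the failed estimate of replicate 1, against 0.910 and 0.934 in wild-type. An exact permutation test of 1 ratio in 2 against 2 libraries cannot give a two-sided p under 1 in 3, so the ratios are given as values with no test.

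**Figure D3:**
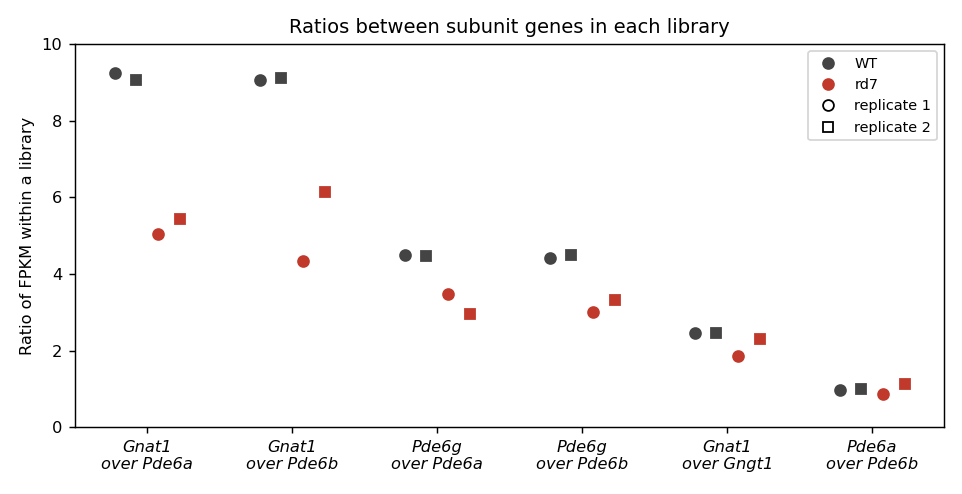
Ratio of the FPKM of 2 subunit genes within each library (vertical axis, linear), with wild-type in grey, *rd7* in red, replicate 1 as circles and replicate 2 as squares. Ratios of *Gnat1* and *Pde6g* to the catalytic genes are lower in both *rd7* libraries, such as 5.05 and 5.43 against 9.25 and 9.07 for *Gnat1* over *Pde6a*.

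The cone counterparts of all 5 subunit positions rose, with log2 fold changes from 1.02 for *Gngt2* to 3.17 for *Gnat2*, each called higher under the 3 other normalizations as well. Set beside the rod genes, *Gnat2* made up 21.8% and 21.0% of the α subunit FPKM of *rd7* libraries and 1.68% and 1.76% of that of wild-type libraries. *Pde6h* reached 42.5% and 45.6% of the inhibitory subunit FPKM in *rd7*, from 11.4% and 10.8% in wild-type. *Pde6c* reached 21.0% and 20.6% of the catalytic FPKM, from 2.87% and 2.90%, and *Gngt2* 24.9% and 22.3% of the γ FPKM, from 9.33% and 9.53%. *Gnb3* made up 32.1% of the β FPKM in *rd7* replicate 2 against 10.4% and 10.1% in wild-type retinas. All *rd7* shares exceeded both wild-type shares. In FPKM, a different measure, both *rd7* values lay above both wild-type values in 57.1% of all genes tested.

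The sums of rod and cone genes did not all move alike. For the α subunits the sum was 3467 and 4217 FPKM in *rd7* and 5242 and 5299 in wild-type retinas, and for the γ subunits 1932 and 1861 against 2314 and 2353. For the catalytic PDE6 genes it was 1468 and 1456 against 1160 and 1179, and for the inhibitory genes 3251 and 3323 against 2832 and 2881. For the β subunits it was 2503 in *rd7* replicate 2, and 2417 with the failed estimate of replicate 1, against 2131 and 2213. With rod and cone genes added, the *rd7* libraries thus lay under the wild-type libraries for transducin α and γ and above them for transducin β and both kinds of PDE6 subunit. These sums were not tested, and they depend on the scaling of the libraries.

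**Figure D4:**
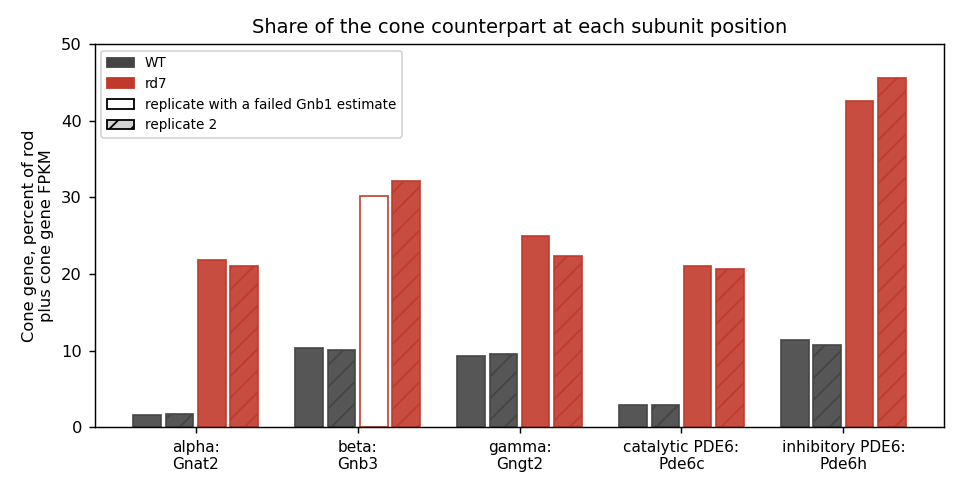
FPKM of the cone gene as a percentage of rod plus cone gene FPKM at each of the 5 subunit positions (vertical axis from 0), with wild-type in grey, *rd7* in red, replicate 2 hatched and the bar that uses the failed *Gnb1* estimate open. The share of *Gnat2* is 21.8% and 21.0% in *rd7* and 1.68% and 1.76% in wild-type retinas.

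Of the other genes of the rod cascade 12 were tested, with 6 called lower, 3 higher and 3 not called by limma at an FDR of 5%, and a median log2 fold change of -0.16, beside 8.80% lower and 37.6% higher over all genes tested. The guanylate cyclase activator *Guca1b* fell by 1.12 on the log2 scale, the Na+/Ca2+-K+ exchanger gene *Slc24a1* by 0.83 and the channel subunit gene *Cnga1* by 0.56. *Rgs9bp*, the membrane anchor of RGS9, *Gucy2e*, a guanylate cyclase, and *Grk1*, a G protein-coupled receptor kinase, fell by 0.40, 0.31 and 0.30. *Guca1a*, *Gucy2f* and *Rgs9*, the last of which speeds the GTP hydrolysis of transducin α, rose by 0.74, 0.47 and 0.32, although *Gucy2f* and *Rgs9* were not called after correction for GC content and length. *Sag*, the rod arrestin, had an FPKM of 2719 and 2900 in *rd7* and 2791 and 2916 in wild-type retinas and was not called, except that it was called lower with that correction (-0.30). *Grk1*, *Rgs9*, *Rgs9bp*, *Gucy2e* and *Guca1a* also serve cones. When either wild-type library was left out, fewer genes of this list were called in each direction, as was the case over all genes tested.

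The list of 13 genes that assemble, lipidate or carry the subunits held 3 genes called lower, 3 higher and 7 not called, with a median log2 fold change of 0.05. The 6 called of 13 are near the 46.4% called either way over all genes tested, and the median turned to -0.10 with median-ratio scaling, -0.07 after correction for GC content and length and -0.0099 with quantile normalization. *Unc119*, which carries acylated transducin α to the outer segment, fell by 0.47, and its FPKM was 718 and 765 in *rd7* and 1029 and 1030 in wild-type retinas. *Arl3*, the small GTPase that releases such cargo, and *Icmt*, which methylates prenylated proteins, fell by 0.25 and 0.19. When either wild-type library was left out, fewer genes of the list were called lower, as was the case over all genes tested. *Pggt1b*, a subunit of the geranylgeranyl transferase that modifies PDE6β, rose by 0.88, *Rp2h* by 0.62 and *Pdcl*, a βγ assembly factor, by 0.38, the last pair not being called after correction for GC content and length.

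No change was called for *Aipl1*, the chaperone of PDE6, with an FPKM of 833 and 842 in *rd7* and 829 and 837 in wild-type retinas. The same held for *Pde6d*, which binds the prenyl groups of PDE6 (log2 fold change 0.09, 95% interval -0.09 to 0.27). *Pdc*, or phosducin, which binds transducin βγ, had a log2 fold change of -0.07 and was called lower with median-ratio scaling (-0.22) and after correction for GC content and length (-0.31). *Fnta* and *Fntb*, the farnesyl transferase subunits, were not called under any of the 4 normalizations.

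**Figure D5:**
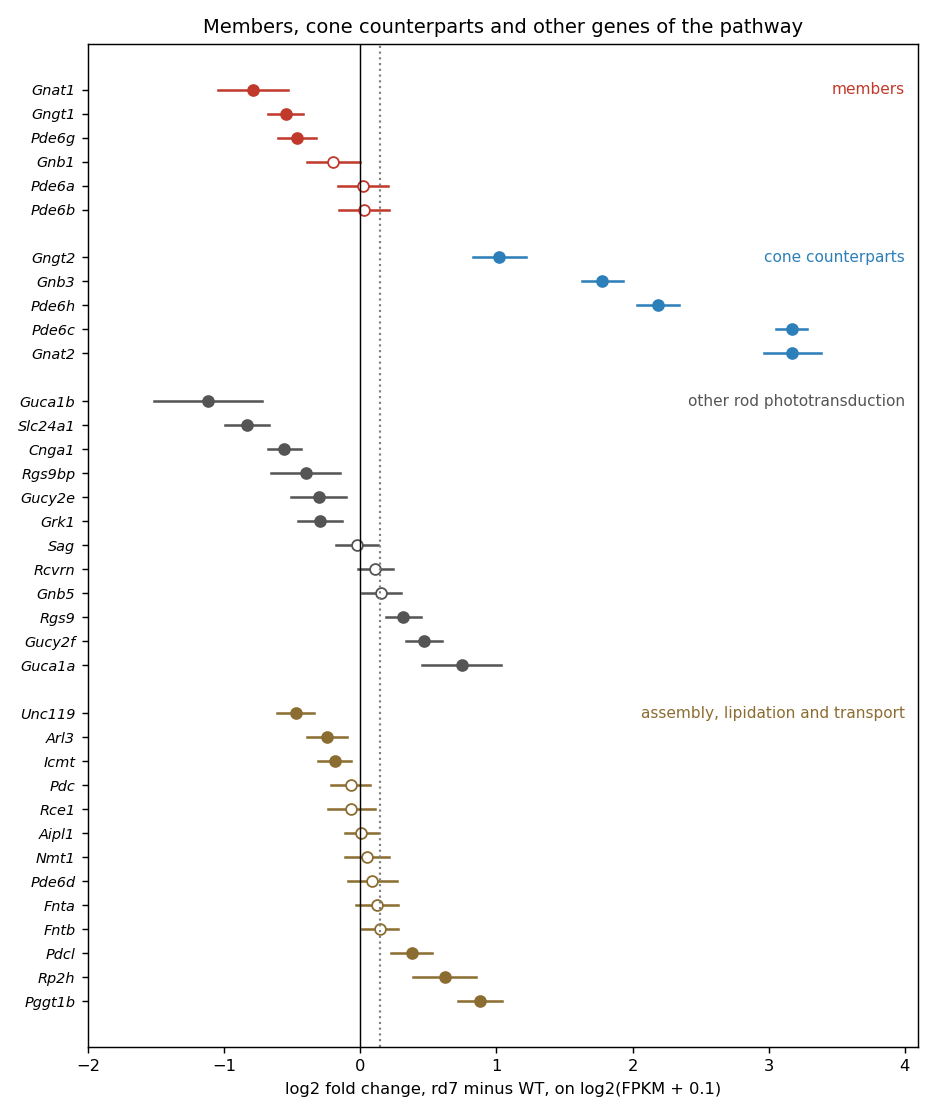
Log2 fold change, *rd7* minus wild-type on log2(FPKM + 0.1), with its 95% interval from limma (horizontal axis) for the 6 members, the 5 cone counterparts and the other pathway genes. Filled points passed an FDR of 5%, and the dotted line is the median of all genes tested, 0.15. The members lie between -0.79 and 0.03 and the cone counterparts between 1.02 and 3.17.

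Other G protein β genes were examined beside *Gnb1*. *Gnb2*, broadly expressed like *Gnb1*, had an FPKM between 41.8 and 47.2 in the 4 libraries and was not called, and *Gnb5*, the partner of RGS9, had a log2 fold change of 0.16 and was not called. *Gnb4* rose by 0.64 at a low level, from an FPKM of 1.72 and 1.92 to 3.27 and 2.54, and was not called with quantile normalization or after correction for GC content and length. With *Gnb3*, 2 of the 4 other β genes were thus called higher, where 37.6% of all genes tested were called higher, so the count is not a result about these genes. Fewer of these β genes were called when either wild-type library was left out, as was the case over all genes tested. Of the rod regulators, *Nrl* fell by 0.42, from 1110 and 1124 to 884 and 785 FPKM, and *Crx* rose by 0.21, a call that was lost with median-ratio scaling (0.06) and with that correction (0.0064).

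The order of the wild-type levels per length was *Gnat1*, *Pde6g*, *Gngt1*, *Gnb1* and then *Pde6b* and *Pde6a*, which overlapped. In *rd7* libraries it was *Gnat1*, *Pde6g*, *Gnb1*, *Gngt1*, with *Pde6a* and *Pde6b* again overlapping, so that *Gnb1* and *Gngt1* exchanged places, which for *Gnb1* rests on 1 successful *rd7* estimate. The genes of a mean FPKM of at least 100 with the pattern nearest to each member were sought by Euclidean distance over the 4 libraries of log2(FPKM + 0.1) minus the wild-type mean. For *Gnat1* they were *Slc24a1* (distance 0.12), *Hist1h2bc* (0.13) and *Cabp4* (0.22), and for *Gngt1* they were *Cnga1* (0.051), *Kpna2* (0.069) and *Mapre3* (0.085). *Kpna2* (0.056) was also nearest to *Pde6g*, followed by *Ndufs7* (0.080) and *Pmm1* (0.084). *Eef1g*, *Tspan7* and *Rpl31* were nearest to *Pde6a* and *Pitpnm1*, *Stmn3* and *Cfl1* to *Pde6b*, and over the 3 libraries with a successful estimate *Uqcrq*, *Sncg* and *Ndufa5* to *Gnb1*. With 4 libraries such likeness is a description.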

How the data were processed

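Retinas of 2 *rd7* and 2 wild-type pools were sequenced (polyA RNA, single 50 bp reads, 1 lane). The authors mapped reads to mm9 with TopHat 1.4.1 and made the deposited FPKM per library with Cufflinks 1.3.0. A status accompanies each value. The 262 loci with any other status than successful were excluded, except that *Gnb1* was kept with its failed value missing. A table of the authors' own comparison (pooled FPKM, log2 fold changes, p-values and q-values) was not used.

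From the FPKM, log2(FPKM + 0.1) was compared between 2 and 2 libraries by the limma package (version 3.58.1, R 4.3.3, moderated with a trend), after a check on simulated data. Ratios and sums were taken in Python 3.11.15. The deposited FPKM hold no counts. Depth was estimated from low values of genes with 1 transcript, within a window of 0.02 to 0.036 FPKM times kb chosen by eye, and covers counting error only. Annotation was GENCODE on the same build, and 93.8% of loci matched by symbol and position. No exon of another annotated gene overlapped those of the 6 genes. Loci count their first base as 1.

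Members, lists and tests were chosen with earlier results of these data known. Genes named are the members, genes of the fixed lists (1 is not reported here), *Nr2e3* and the 3 nearest patterns per member. Alternatives were pseudocounts of 1 and 0.01, quantile normalization, median-ratio scaling, no filter, a higher filter (mean FPKM of 5), no trend, a replicate block, an FDR of 1%, each library left out, a spline correction for exonic GC content and length, missing values for all genes and, added after the data were examined, failed values used as deposited. No clear shared deviation was seen between equally numbered libraries (r = -0.0265 across genes between *rd7* and wild-type replicate 1, each taken as its deviation from its genotype's mean). This value cannot show how the libraries were prepared or whether equal numbers shared a batch.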

Additional observations from a re-analysis of the deposited data

How the results depend on the processing

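With 2 pools of animals per genotype the p-values rest on a spread shared across genes. *Gnat1* was not called with quantile normalization (-0.24). *Gnb1* was called lower with median-ratio scaling (-0.35), with the GC content and length correction (-0.42) and with the failed value as deposited (-0.20), and turned to 0.10 with quantile normalization. *Pde6a* and *Pde6b* turned to -0.13 and -0.12 with median-ratio scaling and to -0.19 each with the GC content and length correction. The cause was not tested, beyond the construction of quantile normalization by rank. With each library left out, log2 fold changes ran from -0.93 to -0.64 for *Gnat1*, -0.23 to -0.17 for *Gnb1* (no value without *rd7* replicate 2), -0.075 to 0.12 for *Pde6a*, with -8.8e-06 without WT replicate 1, -0.069 to 0.13 for *Pde6b* and -0.49 to -0.44 for *Pde6g*.

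Members called lower numbered 4 with median-ratio scaling, 4 with the GC correction and 2 with quantile normalization, and 2 to 4 with a library left out, where 0 to 1 were called higher. Other rod genes called lower numbered 3 with no filter and 3 at an FDR of 1%, and those higher 1 with the GC correction, with ranges of 3 to 6 and 1 to 4 over left-out libraries. Assembly genes called lower numbered 1 with no filter and 1 at an FDR of 1%, and those higher 1 with the GC correction, with ranges of 1 to 4 and 2 to 4. Other β genes called higher numbered 1 with no filter, a mean FPKM of at least 5, quantile normalization, the GC correction or an FDR of 1%, and 1 to 3 over left-out libraries.

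With the replicate number as a block, *Gnat1* (-0.79), *Gngt1* (-0.55) and *Pde6g* (-0.47) were still called, and *Gnb1* (-0.23, adjusted p = 0.162 from limma) was not. The block gave 4508 genes called higher and 1091 lower, against 4755 and 1114.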
